A study of Mus musculus with 108 samples.

Results

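Chromatin that carried the Polycomb state in the livers of 3-month-old mice and an enhancer state at 12 months covered 77984 bins of 200 bp, out of 12313718 autosomal bins and 1017635 autosomal bins in the Polycomb state at 3 months. These bins were selected on the measured states themselves: state 6 (repressed Polycomb) in the SD 3m group, and state 3, 4 or 5 (active enhancer 1, active enhancer 2, poised enhancer) in the SD 12m group, the CR 12m group or both. They are called switched bins here, and the split is into SD only (26856 bins), CR only (18814 bins) and both diets (32314 bins). The numbers of bins in these classes therefore describe the selection, and no test was made of them.

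The samples were formalin-fixed, paraffin-embedded livers of female C57BL/6 mice, in which 4 modifications of histone H3 were measured by chromatin immunoprecipitation and sequencing. SD stands for a standard diet and CR for a caloric restriction of 30% that began at 3 months. The SD 3m group held 8 mice and 30 libraries, the SD 12m group 8 mice and 29 libraries, and the CR 12m group 9 mice and 29 libraries. The libraries were spread unevenly over marks: H3K27me3 had 7, 8 and 6 libraries in SD 3m, SD 12m and CR 12m, H3K27ac had 8, 7 and 9, H3K4me1 had 8, 6 and 9, and H3K4me3 had 7, 8 and 5. All libraries of a group were merged before the states were called, so each group has 1 state per bin and no replicate, and the read depth behind a call is unknown. No p-value can be given. The spread shown is the range over the 19 autosomes, which share their libraries and are not replicates. Below, "under SD" and "under CR" stand for the SD 12m and CR 12m groups, and "at 3 months" for SD 3m. Both 12-month groups were compared with the same SD 3m group. Whole liver mixes hepatocytes with endothelial, Kupffer, stellate and immune cells, and a change of state within a cell type cannot be told apart from a change in cell proportions.

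Polycomb repressive complexes silence developmental genes. One of them trimethylates lysine 27 of histone H3 (H3K27me3), and another compacts the marked chromatin. Enhancers carry monomethylation of lysine 4 (H3K4me1), and active enhancers also carry acetylation of lysine 27 (H3K27ac). Because the same lysine cannot be methylated and acetylated at once, H3K27me3 and H3K27ac exclude each other on a single histone tail. In the chromatin state model, state 6 carried H3K27me3 alone, state 3 both H3K27ac and H3K4me1, state 4 weaker H3K27ac with little H3K4me1, state 5 mostly H3K4me1, and state 8 (quiescent) none of the 4 marks. A switched bin is thus one where H3K27me3 gave way to H3K27ac, H3K4me1 or both at the level of these calls.

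To show the kind of DNA concerned, the middle bin of the longest switched stretch of each class (for SD only, the second longest) is printed, taken from GRCm38 (mm10), plus strand, with each CpG dinucleotide in capitals. None of the bins overlaps an annotated exon.

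SD only, chr2:163179401-163179600: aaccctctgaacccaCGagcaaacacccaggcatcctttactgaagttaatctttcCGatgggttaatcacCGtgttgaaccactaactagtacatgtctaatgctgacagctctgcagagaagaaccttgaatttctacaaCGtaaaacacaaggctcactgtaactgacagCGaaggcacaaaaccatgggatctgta

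CR only, chr12:77938801-77939000: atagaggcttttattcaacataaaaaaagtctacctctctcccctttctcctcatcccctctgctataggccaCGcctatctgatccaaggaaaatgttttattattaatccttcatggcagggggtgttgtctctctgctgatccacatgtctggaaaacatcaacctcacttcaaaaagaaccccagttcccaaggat

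Both diets, chr14:118738801-118739000: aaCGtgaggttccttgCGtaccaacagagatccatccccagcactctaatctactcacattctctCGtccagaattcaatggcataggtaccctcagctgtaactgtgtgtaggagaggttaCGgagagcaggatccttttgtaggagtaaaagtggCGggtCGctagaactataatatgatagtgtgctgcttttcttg

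The SD only bin lay in a stretch of 16.2 kb between genes, 23.5 kb from Tox2, a gene of the TOX family of DNA-binding proteins, and was in state 4 under SD and state 8 under CR. The CR only bin lay in a stretch of 17.4 kb, 118 kb from the nearest annotated gene (Gm8219), and was in state 8 under SD and state 4 under CR. The bin of both diets lay in a stretch of 29.6 kb, 3.64 kb from Gm27198, and was in state 4 in both 12-month groups. The 3 bins held 5, 1 and 6 CpG dinucleotides. They are not CpG islands, and their GC contents were 44.5%, 43.0% and 46.5%.

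The middle bins of the longest stretches that reached the same enhancer state in both diets are printed in the same way, to set the 3 destinations side by side.

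State 3 in both diets, chr5:90374801-90375000: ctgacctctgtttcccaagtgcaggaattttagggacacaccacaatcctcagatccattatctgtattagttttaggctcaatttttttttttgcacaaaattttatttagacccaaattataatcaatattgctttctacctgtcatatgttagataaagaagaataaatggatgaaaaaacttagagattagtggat

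State 4 in both diets, chr17:24769401-24769600: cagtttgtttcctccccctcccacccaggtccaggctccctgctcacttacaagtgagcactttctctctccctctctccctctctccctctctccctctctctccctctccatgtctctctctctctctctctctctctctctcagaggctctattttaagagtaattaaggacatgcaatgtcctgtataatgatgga

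State 5 in both diets, chr9:42726801-42727000: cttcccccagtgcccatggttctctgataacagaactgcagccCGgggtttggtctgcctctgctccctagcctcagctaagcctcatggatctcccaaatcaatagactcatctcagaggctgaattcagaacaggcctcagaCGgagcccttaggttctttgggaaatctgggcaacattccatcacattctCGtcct

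The state 3 stretch was short, at 1.4 kb, and its middle bin lay 6.11 kb from Ankrd17 and had a GC content of 31.5% and no CpG. The state 4 stretch reached 26.8 kb, and its middle bin lay 10.7 kb from Hs3st6 and held a CT-rich simple repeat, with 120 of its 200 bases masked as repeats in the reference. The state 5 stretch of 5.4 kb lay in an intron of Grik4, a kainate receptor subunit of neurons, and its middle bin held 3 CpG dinucleotides.

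Of the state 6 bins at 3 months, 59170 (5.81%) were in an enhancer state under SD and 51128 (5.02%) under CR. The share over autosomes ran from 4.02% to 10.5% under SD and from 3.20% to 10.8% under CR. For comparison, 2.72% of the quiescent bins of the 3-month livers were in an enhancer state under SD and 3.4% under CR. The state 6 share was chosen by the rule, and nothing is read from its being higher. Most bins that left state 6 did so toward state 8: this was 86.2% of them under SD and 89.5% under CR, against 13.3% and 10.3% toward enhancer states. The reverse switch was rarer. Of the bins in states 3 to 5 at 3 months, 23896 were in state 6 under SD and 30749 under CR, so that bins going from Polycomb to enhancer outnumbered those going from enhancer to Polycomb 2.48 times under SD and 1.66 times under CR.

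The 3 classes covered 5371 kb (SD only), 3763 kb (CR only) and 6463 kb (both), or 34.4%, 24.1% and 41.4% of the switched bins. Where only 1 diet showed an enhancer, the other diet mostly showed no mark at all. Among the SD only bins, 67.8% were in state 8 and 32.1% still in state 6 under CR. Among the CR only bins, 78.5% were in state 8 and 21.3% in state 6 under SD. At most SD only and CR only bins the Polycomb call was thus absent in the other diet too. Bins of the class both had left state 6 in both diets by the rule. Of all state 6 bins at 3 months, 43.7% had left this state under SD and 48.6% under CR. How often bins that left it in 1 diet also left it in the other was not computed, so nothing particular to switched bins is read from this.

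State 4, the weaker active enhancer, was by far the most frequent destination. Of the bins switched under SD, 95.9% had reached state 4, 3.89% state 5 and 0.179% state 3. Under CR the shares were 78.6%, 18.5% and 2.81%. The poised state 5 thus took a 4.77 times larger share of the switched bins under CR than under SD. The share in state 5 was larger under CR on 19 of 19 autosomes, from 1.73% to 7.28% under SD and from 10.3% to 29.4% under CR, and these ranges do not overlap. Among quiescent bins that became enhancers, state 4 was the main destination too, with 88.7% under SD and 81.45% under CR. Their state 5 shares were 10.7% under SD and 14.4% under CR. Over all autosomal bins, state 5 coverage was 5.61% at 3 months, 2.75% under SD and 2.47% under CR, and state 4 coverage was 6.71%, 9.82% and 8.56%. H3K4me1, the mark of state 5, had 6 libraries under SD and 9 under CR, and the part of this in the difference was not tested. Of the bins switched in both diets, 86.1% were in the same state in both, and 82.7% were in state 4 in both.

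**Figure D1:**
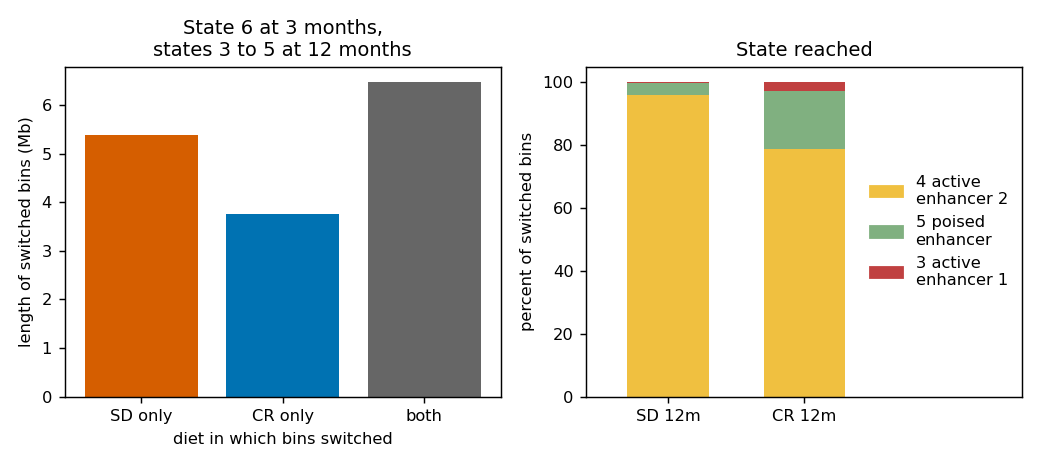
Left, length in Mb of the autosomal bins in state 6 in SD 3m and in states 3 to 5 at 12 months, by the diet in which they switched (1 segmentation per group, no error bars). Right, percent of switched bins in state 4, 5 and 3 in SD 12m and CR 12m. State 4 takes 95.9% of the bar in SD 12m and 78.6% in CR 12m, and state 5 takes 3.89% and 18.5%.

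Chromosomes 19, 11 and 17 held the highest shares of switched bins. Of the state 6 bins of chromosome 19, 14.4% switched in either diet, followed by 11.9% on chromosome 11 and 11.6% on chromosome 17. Chromosome 1 had the lowest share, at 5.38%. States 3 to 5 covered 30.1% of chromosome 19 and 32.4% of chromosome 11 at 3 months, 23.0% of chromosome 17 and 20.3% of chromosome 1. Coverage and share did not always go together. Chromosomes 2 and 9, each with a coverage of 25.2%, had shares of 7.02% and 6.64%. Chromosome 16, with a coverage of 21.3%, had a share of 10.2%. The share was higher under SD than under CR on 16 autosomes and lower on chromosomes 5, 9 and 19. The share of switched bins that switched in both diets ran from 32.7% on chromosome 6 to 49.4% on chromosome 11.

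**Figure D2:**
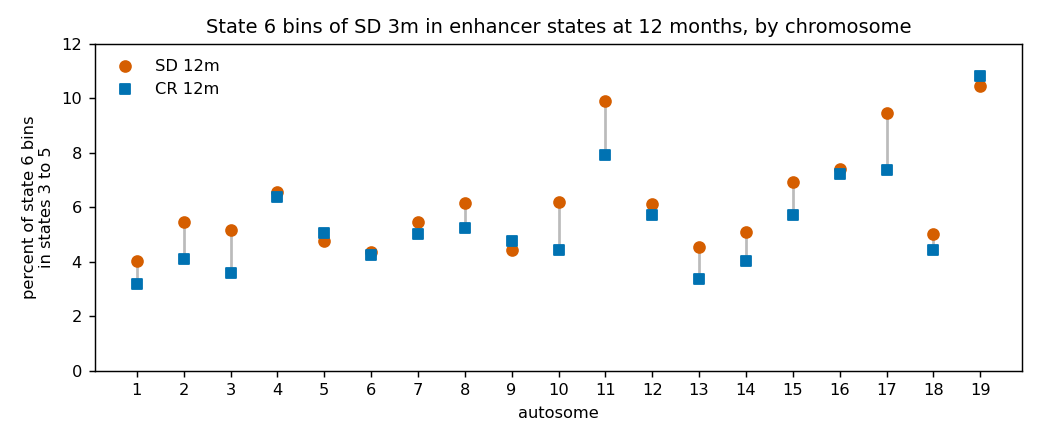
Percent of the state 6 bins of SD 3m (y axis) that were in states 3 to 5 in SD 12m (circles) and in CR 12m (squares), for each autosome (x axis). Lines join the groups of 1 chromosome; the points are highest on chromosome 19 (10.5% and 10.8%) and lowest on chromosome 1 (4.02% and 3.20%).

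Adjacent switched bins formed 5479 unbroken stretches with a median length of 2000 bp, quartiles of 800 and 3800 bp, and a maximum of 30000 bp. Stretches of 10 kb or more numbered 186, and 414 consisted of a single bin. Bins of the class both were present in 2664 stretches (48.6%), while 1709 stretches were wholly SD only and 1101 wholly CR only. In 1951 stretches bins of different classes were joined.

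Switched bins lay beside enhancers that were already present at 3 months. The median distance to the nearest bin in states 3 to 5 at 3 months was 2.6 kb, against 38 kb for bins that stayed in state 6 in all 3 groups and 16 kb for bins that went to state 8 in both diets. Within 1 kb of such an enhancer lay 24.5% of the switched bins and 1.16% of the bins that stayed in state 6. Bins switched in both diets were the nearest, with a median of 1.8 kb, followed by SD only (3.2 kb) and CR only (3.4 kb). Among CR only bins, 9.76% lay more than 20 kb from any enhancer of the 3-month livers, against 3.14% of SD only bins and 1.80% of bins switched in both.

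The share of state 6 bins that switched fell steeply with this distance. Of the state 6 bins adjacent to an enhancer bin, 49.0% were in an enhancer state under SD and 43.3% under CR. At over 2 to 5 kb the shares were 19.4% and 15.6%, and at over 50 kb 0.0679% and 0.177%. The order of the diets turned with distance, with SD 12m higher at every distance up to 20 kb and CR 12m higher beyond. At equal distance, quiescent bins switched at shares not far from those of Polycomb bins near enhancers. Adjacent to an enhancer, 43.6% of state 8 bins were in an enhancer state under SD and 47.4% under CR, so that state 6 bins were above state 8 bins under SD and below them under CR. At over 20 to 50 kb, the shares were 0.496% of state 6 bins and 0.203% of state 8 bins under SD, and 0.764% and 0.473% under CR.

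**Figure D3:**
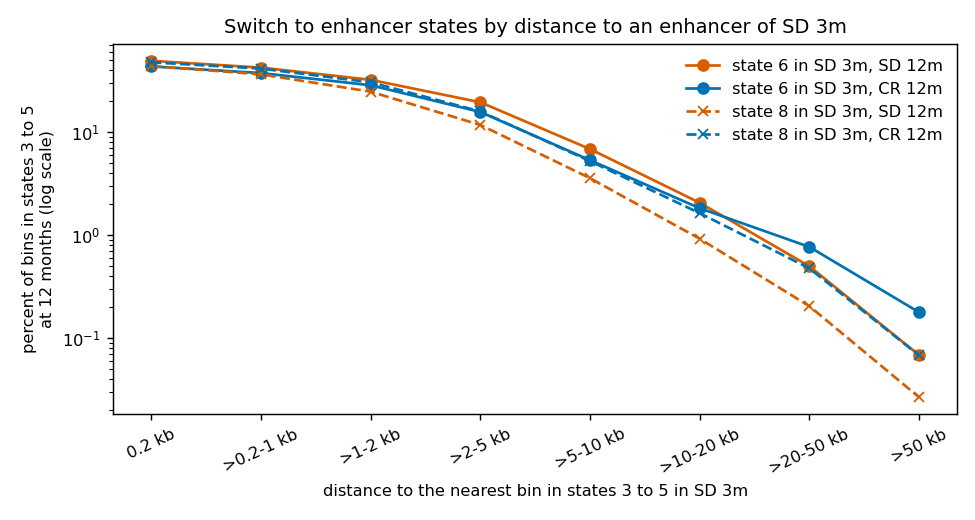
Percent of bins in states 3 to 5 at 12 months (y axis, log scale) by distance to the nearest bin in states 3 to 5 in SD 3m (x axis), for bins in state 6 (solid lines, circles) and state 8 (dashed lines, crosses) in SD 3m. All 4 lines fall from over 40% at 0.2 kb to below 0.2% beyond 50 kb.

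Most of the enhancer stretches that took in switched bins had an enhancer within them already at 3 months. Under SD, 3990 unbroken stretches of states 3 to 5 held switched bins, and 2825 of them (70.8%), with 81.2% of the switched bins, also held bins that were already in states 3 to 5 at 3 months. Under CR these were 2524 of 3406 stretches (74.1%), with 83.0% of the switched bins. Stretches with no bin of their own in states 1 to 5 at 3 months numbered 1058 under SD and 799 under CR and held 17.0% and 15.3% of the switched bins. Their median length was 1400 bp in both groups, against 11000 and 11800 bp for the stretches with an earlier enhancer.

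State 6 domains that were bordered by enhancers switched more often, and short domains lost a larger share of their bins, although a domain with any switched bin was not more frequent among them. The SD 3m livers held 12682 autosomal state 6 stretches, and 4202 (33.1%) had at least 1 switched bin. At least 1 bin had switched in 31.0% of the stretches of up to 2 kb and in 40.4% of those of over 50 kb. Counted in bins, stretches of up to 2 kb lost 24.6% of their bins to enhancer states under SD and 21.5% under CR, and stretches of over 50 kb, the long Polycomb domains, 1.14% and 1.49%. The 696 domains of over 50 kb still held 5648 switched bins, 7.24% of the total. Whole domains switched in 896 cases under SD, 788 under CR and 548 in both, and 1 of these 548 was longer than 20 kb. Of the domains with an enhancer directly on both sides, 81.2% had a switched bin, against 56.5% with an enhancer on 1 side and 9.55% with none. In bins, 20.1% of domains flanked on both sides switched under SD and 16.9% under CR, while domains with no enhancer beside them switched at 1.06% and 1.05%. Distance to an enhancer and length of the domain go together, and their parts were not separated.

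Around the middle of the 5479 stretches, the 12-month groups differed from the 3-month group over a wider area. The bins there are in part chosen by the rule too, since many belong to the same or to other switched stretches, and the values are a description. At 5 kb downstream (toward higher coordinates), 32.6% of stretches had an enhancer bin at 3 months, 43.7% under SD and 41.4% under CR. State 6 was found at the same place for 47.0%, 15.6% and 17.7% of stretches, and state 8 for 16.9%, 38.5% and 39.4%. At 20 kb the state 6 shares were 30.6%, 16.5% and 17.5%. The share with an enhancer at this distance was 39.6%, 46.0% and 45.6%. The stretches were chosen for state 6 at 3 months, which raises the state 6 share around them in that group. Over all autosomal bins, state 6 coverage was 8.26% at 3 months, 12.4% under SD and 9.42% under CR. The lower state 6 shares around the stretches at 12 months are therefore no sign of a general loss of state 6.

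**Figure D4:**
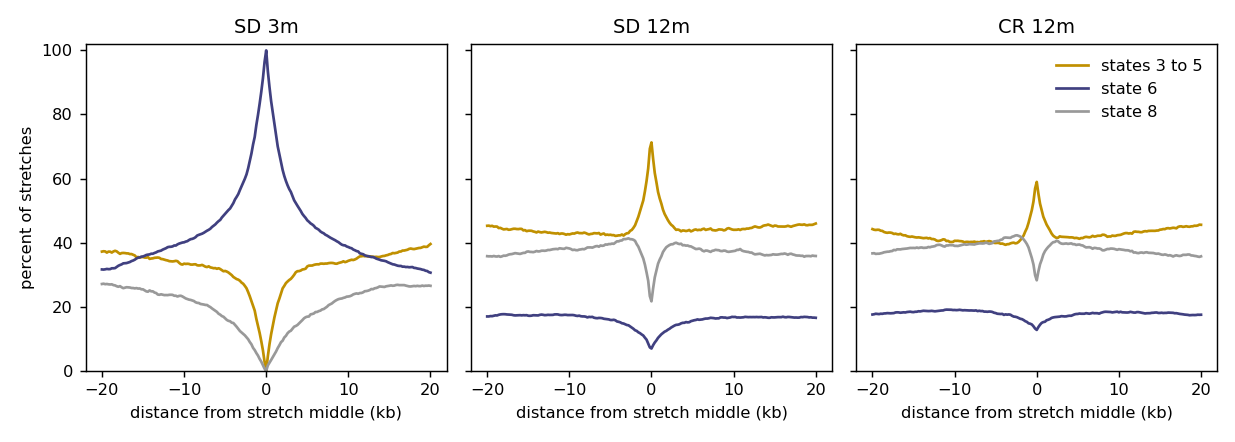
Percent of the 5479 switched stretches (y axis) with states 3 to 5, state 6 or state 8 at each distance from the stretch's middle (x axis, kb), in SD 3m, SD 12m and CR 12m. State 6 is at 100% and states 3 to 5 at 0% at the middle in SD 3m because the rule asks for it; at 20 kb state 6 holds 30.6% of stretches at 3 months, 16.5% under SD and 17.5% under CR.

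Switched bins were somewhat richer in GC than the genome. Their GC content was 45.4% on average, against 44.3% for bins that stayed in state 6, 42.9% for bins that went to state 8 and 41.9% over all autosomal bins. They held 2.20 CpG dinucleotides per bin, the retained state 6 bins 2.18 and the bins gone to state 8 1.74. Outside annotated genes lay 57.4% of them, against 52.2% of retained state 6 bins, 58.1% of bins gone to state 8, 51.6% of all autosomal bins and 26.5% of the bins in states 3 to 5 in all 3 groups. Exons were touched by 9.14%. Within 2 kb of a transcription start site (TSS) lay 7.19%, close to the 6.90% of retained state 6 bins and above the 2.63% of bins gone to state 8 and 3.85% of all autosomal bins. With the start of every gene record, predicted genes included, in place of curated transcripts, 12.5% of the switched bins lay within 2 kb of a TSS. The CR only bins had the highest CpG content (2.40 per bin), gene share (48.0%) and TSS share (8.89%), and the SD only bins the lowest (2.03 per bin, 39.6% and 5.91%).

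Bins dense in CpG, such as those in CpG islands, stayed in state 6 more often than others, and the order of the diets differed there. State 6 was retained in all 3 groups by 40.7% of the state 6 bins with no CpG and by 72.3% of those with 15 or more. The share in an enhancer state under SD was 5.0% with no CpG, 6.77% with 6 to 9 and 4.26% with 15 or more. Under CR it was 4.06%, 6.46% and 6.23%. Bins with 10 or more CpG were thus more often in an enhancer state under CR than under SD, whereas those with fewer were more often so under SD.

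Short motifs of transcription factors were present in switched bins at shares near those of other bins. The search took 12 motifs on both strands. The FOXA motif TGTTTAC was found in 2.41% of switched bins, 2.73% of retained state 6 bins and 2.98% of all autosomal bins, and the HNF4A motif CAAAGTCCA in 0.304%, 0.259% and 0.257%. The C/EBP motif TTGCNNAA was in 7.79%, 8.41% and 9.28%, the HNF1 motif GTTAATNAT in 0.428%, 0.562% and 0.703%, the GATA motif AGATAA in 10.7%, 11.8% and 13.2%, and the nuclear receptor half-site AGGTCA in 12.6%, 11.6% and 11.1%. The AP-1 motif TGANTCA was in 5.87%, 5.92% and 5.96%, the PU.1 motif GAGGAAGT in 1.22%, 1.24% and 1.20%, the TEAD motif CATTCC in 10.6%, 10.7% and 10.8%, and the RBPJ motif GTGGGAA in 4.07%, 4.03% and 3.55%. The largest ratios to all autosomal bins were 1.55 for the CTCF core AGGGGGC (2.45% against 1.58%) and 1.44 for the E-box CACGTG (2.88% against 1.99%). Among bins with a GC content from 40% up to 50%, these 2 came to 1.94% against 1.57% and 2.95% against 2.21%. The lowest ratio was 0.609, for the HNF1 motif, which came to 0.354% against 0.435% in that GC range. In the printed bins, the state 3 bin held a half-site at position 2, a C/EBP match at position 93 and GATA matches at positions 59 and 155, counted from its first base, and the state 5 bin a TEAD match at position 179. The other 4 printed bins held none of the 12 motifs.

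Genes were scored by the switched bins between 5 kb before their start and their end. Of 46709 autosomal genes, 9831 had a state 6 bin there at 3 months, and 2816 of these had at least 3 switched bins (28.6%). The number was 1690 with at least 10 bins asked for and 1764 with the gene body alone. At least 3 bins had switched under SD in 2272 genes, under CR in 2146 and in both, bin by bin, in 1532. Protein-coding genes reached 35.0% (1727 of 4933) and lncRNA genes 25.4% (821 of 3230). The share did not rise steadily with the number of state 6 bins a gene had, from 29.4% with 1 to 9 to 32.8% with 100 or more. As controls, Alb (albumin) and Apoa1 (apolipoprotein A-I), which hepatocytes express, had no state 6 bin at 3 months. Neurod1, a neuronal transcription factor, had 46 and none switched, and Pax6, an eye and brain factor, had 134, of which 16 switched.

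The gene with the most SD only bins was Cldn10 (chr14:118787871-118874525, plus strand), which encodes a tight junction claudin. Of its 318 state 6 bins at 3 months, 150 were in an enhancer state under SD and 51 under CR. Under SD these were mostly state 4 (114 bins), and under CR all 51 were state 5. Rgs6, a regulator of G protein signalling, had 1904 state 6 bins, of which 121 switched under SD and 44 under CR. Zfp385c, a zinc finger gene, switched 136 and 60 of 229 bins, and Ltbp2, which encodes a matrix protein that binds to fibrillin microfibrils, 103 and 31 of 296. In these 4 genes bins had switched in both diets, and more had done so under SD.

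In other SD only genes almost no bin had switched under CR. Ccdc192, a coiled-coil gene, switched 86 of 297 bins under SD and 0 under CR, and Kctd19, which acts in male meiosis, 73 and 0 of 121. Majin, a meiotic telomere gene, switched 80 and 6 of 219, and Opalin, an oligodendrocyte membrane gene, 79 and 6 of 97. In these 4 genes every switched bin of SD 12m was in state 4. Majin and Opalin lie on chromosome 19, which had the highest share of switched bins.

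The gene with the most CR only bins was B4galnt3 (chr6:120200753-120294917, minus strand), which encodes a glycosyltransferase. Of its 185 state 6 bins, 158 were in state 4 under CR and 34 under SD, and its start passed from state 6 to state 8 under SD and to state 4 under CR. Trarg1, which regulates trafficking of the insulin-responsive glucose transporter in fat and muscle, had 77 state 6 bins, and all 77 were in state 4 under CR against 7 under SD. Cyp4x1, a cytochrome P450 gene, switched 99 of 119 bins under CR and 0 under SD. C2cd6, a sperm flagellum gene, switched 78 and 30 of 339. In these 4 genes, state 4 was the main state reached.

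In the other 4 genes of the CR only class, the poised state 5 took a larger part, although state 4 was still the main state in Sema5b. Creb5, a transcription factor of the CREB family, had 152 switched bins under CR, all in state 5, and 43 under SD, out of 1821 state 6 bins. Acoxl, an acyl-CoA oxidase-like gene, had 116 under CR, of which 69 were in state 5, and 47 under SD. Slc1a2, the glutamate transporter GLT-1, which pericentral hepatocytes use for glutamate uptake, had 163 under CR, of which 101 were in state 5, and 86 under SD, all in state 4, out of 319. Sema5b, a guidance molecule, had 137 under CR, of which 99 were in state 4 and 33 in state 5, and 28 under SD.

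Among the 8 genes with the most bins switched in both diets, 4 had every state 6 bin switched in at least 1 diet (Prr5l, Slc47a2, Ncan and Sarm1). Prr5l (chr2:101713110-101883052, minus strand), which encodes a protein that associates with the mTORC2 kinase complex, had 119 state 6 bins, of which 119 switched under SD and 105 under CR. Slc47a2, a transporter of organic cations, switched 105 and 113 of 113. Sarm1, an NAD-cleaving enzyme of axon degeneration, switched 88 and 88 of 88, and 4 of these bins are shared with the interval of Vtn, the gene of the plasma protein vitronectin. Ncan, a brain proteoglycan, switched 107 and 107 of 125. Tmem116 switched 88 and 121 of 132, Efcab5 140 and 140 of 331, Mpp2, a membrane scaffold gene, 87 and 89 of 121, and Sez6, a seizure-related gene of neurons, 135 and 109 of 267. Of these 8 genes, 5 (Slc47a2, Sez6, Efcab5, Sarm1 and Mpp2) lie on chromosome 11, which held 8558 of the 77984 switched bins. Efcab5, Sez6 and Sarm1 are neighbours there, between positions 77089904 and 78497816.

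**Figure D5:**
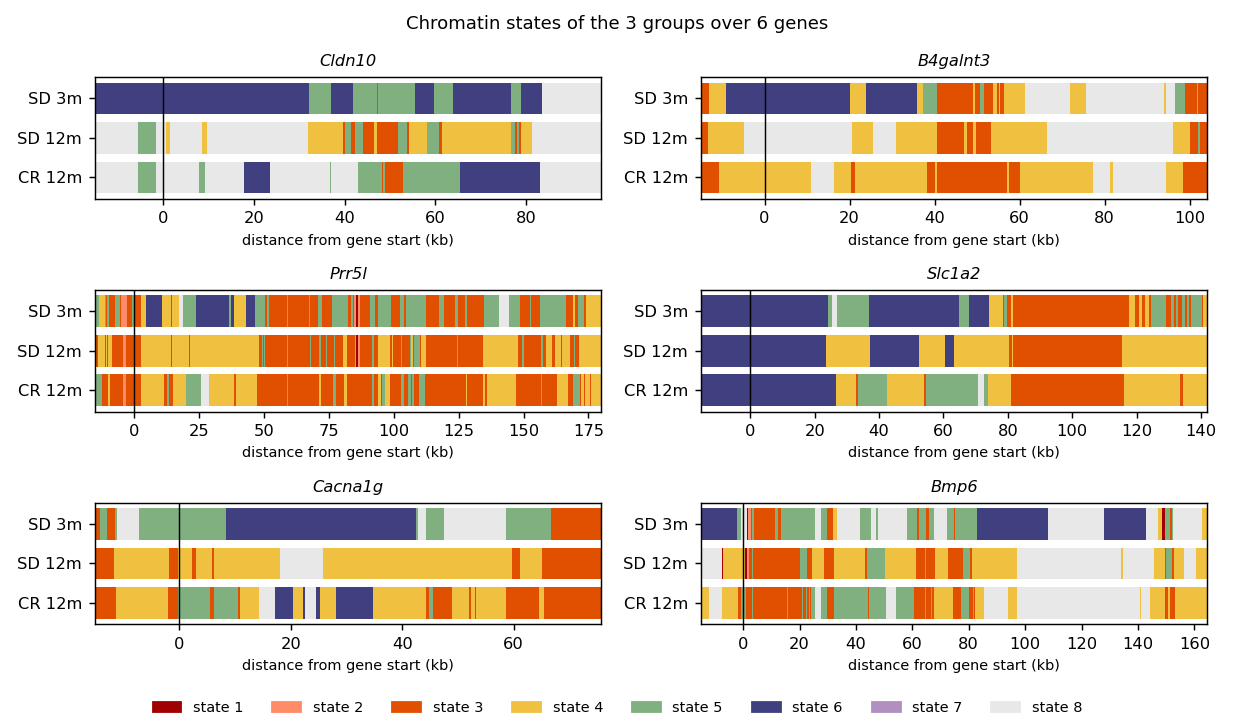
Chromatin states in SD 3m, SD 12m and CR 12m (rows) along 6 genes, by distance from the gene's start in kb, with the start at the vertical line and the direction of transcription to the right. State 6 (dark blue) of SD 3m is replaced mainly by state 4 (yellow), state 5 (green) or state 8 (pale grey); B4galnt3 has 158 switched bins in CR 12m and 34 in SD 12m, and Cldn10 51 and 150.

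The longest stretches were mostly between genes or over non-coding genes. In both diets, 29.6 kb switched on chromosome 14 (chr14:118724001-118753600) over Gm27198 and Gm46484, 29 kb at Hs3st6, a heparan sulfate sulfotransferase gene (chr17:24753801-24782800), 17.4 kb over Gm42054, 16.8 kb in Slc47a2, and 16.2 kb beside Gm5358. The last of these was in state 4 under SD throughout and for 92.6% of its length in state 5 under CR. The 5 longest SD only stretches, from 12.4 to 16.8 kb, were wholly in state 4 under SD. They lay in Ccdc192, near Tox2, 0.205 kb from Faim2 (an inhibitor of Fas-mediated apoptosis), over Gm34828 and near Gm25609. The one beside Faim2 was still in state 6 over its whole length under CR, and the ones in Ccdc192 and Gm34828 were in state 8. The 5 longest CR only stretches, from 13.2 to 17.4 kb, lay near Gm8219, in B4galnt3, near Gm46736, in Slc1a2 and near Gm18038. The Slc1a2 stretch was still in state 6 throughout under SD.

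Developmental transcription factors were called about as often as other genes with state 6, but a smaller share of their state 6 bins switched. Their switched bins were mostly in the poised state. Of 118 developmental transcription factors with state 6, 29 (24.6%) had at least 3 switched bins, near the 28.6% of all tested genes. These counts were 14 under SD and 25 under CR, while over all tested genes they were 2272 and 2146. Counted in bins, 287 of their 10283 state 6 bins switched (2.79%), against 8.39% over all tested genes. The factors had a median of 49.5 state 6 bins, against 32 for all tested genes. Of the bins that switched in these factors, 60.6% of 99 were in state 5 under SD and 80.5% of 251 under CR, against 4.15% and 19% over all tested genes. Pax2, a kidney and ear factor, switched 43 of 479 bins under CR, with 24 going to state 4, 12 to state 5 and 7 to state 3, and 0 under SD. Lhx6, an interneuron factor, switched 20 of 31 bins in both diets, all to state 5, and Nkx2-5, a heart factor, 7 under SD and 15 under CR of 38, all to state 5. The 16 bins of Pax6 that switched under CR were in state 5 as well.

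Hox genes, which set position along the body axis, seldom switched to enhancer states. Of 35 with state 6, 3 (8.57%) had at least 3 switched bins, against 28.6% of all tested genes. Their 1836 state 6 bins held 29 counted switches (1.58%, against 8.39% over all tested genes), all under CR and all in state 5. These were Hoxa3 and Hoxa5 (13 bins each) and Hoxa6 (3 bins), neighbours whose intervals overlap, so the same bins are counted for more than 1 gene.

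Ligands of the Wnt, Fgf, Bmp and Hedgehog families were called in 17 of 46 genes (37.0%, against 28.6% of all tested genes), 10 under SD and 13 under CR. Bmp6, an inducer of hepcidin made by liver endothelial cells, switched 90 of 216 bins under SD and 47 under CR, all to state 4. Wnt8a switched 5 and 42 of 42, and Wnt9b, a Wnt of central vein endothelial cells, 11 and 33 of 105. Of the switched bins of this group, 4.76% were in state 5 under SD and 32.9% under CR. Neuronal channels and receptors were called in 17 of 57 (29.8%, near the 28.6% of all tested genes). Cacna1g, a T-type calcium channel (chr11:94408391-94474400, minus strand), switched 131 and 91 of 170, Grik4 68 and 84 of 1351, and Adra1d, an adrenergic receptor, 44 and 76 of 112. State 5 took 49 of the 68 bins of Grik4 under SD and 75 of the 84 under CR, and all 76 of Adra1d under CR.

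Most hepatocyte genes had no Polycomb state at 3 months and so could not switch. State 6 was present in 1 of 20 hepatocyte transcription factors and 1 of 48 drug-metabolising enzymes, neither of which was called. The other lists held few genes with state 6, and their counts stand beside 28.6% of all tested genes called. Of 5 pericentral genes, 4 were called, among them Slc1a2, Rhbg, an ammonia transporter (18 bins under SD and 23 under CR of 71), and Slc22a3, an organic cation transporter (0 and 19 of 294). The periportal gene with state 6, Hsd17b13 of the lipid droplet, switched 23 of 23 bins in both diets. Of the sex-biased liver genes, Hao2, a hydroxyacid oxidase, switched 41 and 15 of 70, and Hsd3b5, a steroid dehydrogenase, 0 and 6 of 6. Among lipid and glucose genes 1 of 5 was called (Lpl, lipoprotein lipase, 3 bins under SD), among circadian clock genes 0 of 2, among cell cycle inhibitors and p53 genes 0 of 3, and among fetal liver genes 3 of 14, which were Igf2bp3 (12 bins, CR 12m), Plagl1 (11 bins, SD 12m) and Krt7 (8 bins, CR 12m).

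Marker genes of other liver cells with state 6 were few, and the counts called are to be read against the 28.6% of all tested genes. Both cholangiocyte markers with state 6 were called, Sctr, the secretin receptor (33 of 33 bins in both diets), and the keratin gene Krt7. Among endothelial markers, 3 of 10 were called (Wnt9b, Stab2 and Kdr), and among Kupffer cell and macrophage markers 2 of 7. Those 2 had most of their switched bins under SD: Siglec1, a macrophage lectin, switched 29 bins under SD and 4 under CR of 59, and Itgam, an integrin of myeloid cells, 23 and 0 of 57. Of 21 lymphocyte markers 4 were called, with Tbx21, the T-bet factor of T cells, at 59 and 29 of 59, Prdm1, the Blimp-1 factor, at 40 and 39 of 318, and Cd3g, a T cell receptor subunit, at 20 and 4 of 55. H2-Oa was called in the antigen presentation list (1 of 1, 6 bins under SD). Over all tested genes, counted gene by gene, 39102 bins had switched under SD and 36242 under CR. Among the called immune markers named here, Tbx21, Cd3g, Siglec1, Itgam and H2-Oa also had more switched bins under SD than under CR, while Prdm1 was nearly equal in both. The part of immune cell numbers in this was not tested. No inflammatory or interferon gene was called of 4, and no stellate or fibroblast marker of 9. Of 19 collagen and matrix genes, 2 were called, Vcan, a versican proteoglycan (19 and 18 of 164), and Mmp9 (3 and 2 of 67), and of 15 imprinted genes 4, led by Slc22a3, Copg2 (11 and 6 of 11) and Plagl1.

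Genes of the Polycomb and trithorax machinery had little state 6, with a median of 9.5 bins in the 8 genes that had any, and 6 of the 8 were called, against 28.6% of all tested genes. Cbx7, a chromobox subunit of Polycomb repressive complex 1, switched 30 and 13 of 30 bins, its relative Cbx6 11 and 11 of 11, and Bmi1, a core subunit of the same complex, 5 and 9 of 9. Of the 89 state 6 bins of this list, 83.1% switched, against 8.39% over all tested genes. In Cbx7, Cbx6 and Bmi1 every state 6 bin of the gene had switched in at least 1 diet.

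Few switched bins held a TSS. Of 2543 TSS in state 6 at 3 months, 221 (8.69%) were in a switched bin, near the 7.66% of all state 6 bins. Of these 221, 58 were SD only, 73 CR only and 90 in both diets. State 6 was kept in all 3 groups at 1528 TSS (60.1%), beside 442878 of all 1017635 state 6 bins. State 5 was reached by 11 of the 148 TSS that switched under SD and by 42 of the 163 that switched under CR. In the gene lists, 12 TSS were in switched bins. Of these, 9 switched under CR alone (Bmp10, Grin2d, Hoxa5, Irx3, Lhx8, Nkx2-5, Wnt10b, Wnt8a and Wnt9b), 1 under SD alone (Wnt7b), and 2 in both (Lhx6 and Sctr). These 12 were named after their values were seen. The number of listed genes with a TSS in state 6 at 3 months is not given. The 12 therefore cannot be set beside the 8.69%, and nothing is read from their split by diet.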

How the data were processed

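Chromatin states of mouse liver were taken as deposited. The authors aligned reads to mm10 (per the labels, BWA 0.6.2-r126 and SAMtools 0.1.18), merged the libraries of each group and assigned 1 of 8 ChromHMM states to every 200 bp bin. The deposited values are therefore state labels, a category that is neither a count nor a signal, and the depth is unknown. The segmentations used were those of the 3-month group and of both 12-month groups. The SD 6m group (6 mice, 20 libraries) was not analysed here.

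Bins were compared position by position on 19 autosomes (Python 3.11.15, numpy 2.4.6, scipy 1.17.1, figures with matplotlib 3.10.9). Genes, exons and TSS (the start of the longest curated transcript) came from RefSeq for GRCm38.p6, the same build as mm10. A gene was called with at least 3 switched bins from 5 kb before its start to its end. GC, CpG and motif shares were counted on the reference sequence, with a motif match lying wholly within a bin. Scripts were tested on simulated switches.

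Named are, for each class, the 8 protein-coding genes with the most switched bins (predicted genes left out) and the 5 longest stretches with their overlapping or nearest genes, in each of 23 gene lists up to 3 called genes with the most switched bins, and 4 control genes. Any other gene named was chosen after its values were seen. The switched bins, gene lists and settings were chosen with earlier results of these data known. With 1 segmentation per group no test was made. Alternatives were chromosome X, the first 3 Mb of chromosomes, stretch length, window size, distance to state boundaries, the enhancer states taken, the TSS set and the rule for genes.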

Additional observations from a re-analysis of the deposited data

Results flagged for a closer look

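Chromosome X lay outside the autosomal comparisons and held switched bins too. Of its 231400 state 6 bins in SD 3m, 2400 (1.04%) were in states 3 to 5 at 12 months in either diet, against 7.66% on the autosomes. These are neighbouring bins of 1 merged segmentation per group, and no test was made. In SD 12m 980 bins (0.424%) had switched and in CR 12m 2100 (0.908%), so that the order of the diets was opposite to that of 16 of the 19 autosomes. States 3 to 5 covered 3.10% of chromosome X in SD 3m. State 5 took 58.7% of the switched bins of chromosome X in SD 12m and 30.2% in CR 12m, again in the opposite order to the 19 autosomes.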

How the results depend on the processing

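No paired analysis was possible because each group has 1 segmentation of merged libraries, and no library could be left out. The 5.81% of state 6 bins switched in SD 12m, the 5.02% in CR 12m and the 41.4% of switched bins shared by both diets became 4.82%, 4.26% and 41.0% with chromosome X, 5.74%, 4.96% and 41.9% with stretches of at least 600 bp only, 4.45%, 3.79% and 36.9% with bins less than 1 kb inside a domain's border left out, and 5.59%, 4.09% and 39.3% with states 3 and 4 only as enhancers. All of these lie outside the 95% binomial interval of the first values, which is narrow at this number of bins. That interval treats neighbouring bins as independent. It measures no spread between mice and serves only as a fixed yardstick for the size of a change. SD 12m stayed above CR 12m in each alternative. Leaving out the first 3 Mb or taking 1 kb windows left these values within that interval. The number of switched bins ran from 54025 to 80384 over the alternatives, within 1.5 times of 77984. The 2816 called genes became 1690 with at least 10 bins, 1764 with the gene body alone and 3250 with at least 1 bin. With 1 TSS per gene record, which adds predicted genes, 12.5% instead of 7.19% of switched bins lay within 2 kb of a TSS. With merged libraries, a group's states may rest on a few of its mice, and differences between groups carry no error.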
